A study of Mus musculus with 6 samples.

Results

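The miR-181 family of the mouse consists here of mmu-miR-181a-5p, mmu-miR-181b-5p, mmu-miR-181c-5p and mmu-miR-181d-5p, the 4 miRNAs chosen by their names among the 1247 mouse miRNAs on the array (the prefix mmu, for mouse, is mostly left out from here on). They were measured in sorted mammary cells of virgin wild-type FVB/N-J mice on 1-colour (Cy3) Agilent arrays. P4 is the Lin-CD24+CD29hi population, named by the labels as enriched for mammary stem cells (MaSC), and P5 is the Lin-CD24+CD29lo population, named as enriched for luminal cells and, in another label, for luminal progenitors. CD24 is an epithelial surface marker and CD29 is integrin beta 1, and the sort on CD29 also places the basal, myoepithelial layer in P4. Each population had 3 arrays. No label used here names a treatment, gives the age of the mice or says whether replicates came from separate animals or sorts. The p-values therefore rest on array-to-array spread alone, and that spread may be technical.

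A miRNA directs the silencing complex to messenger RNAs through its seed, bases 2 to 8 from its 5′ end, so that miRNAs with 1 seed share many targets. The miR-181 family is best known from the thymus, where miR-181a tunes the sensitivity of T cell receptor signalling, and from B cell development. In mammary epithelial and breast cancer cells its members are known to respond to TGF-beta, a signal that also drives epithelial cells towards a mesenchymal state.

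The 4 mature sequences are shown because the family is defined by the seed, here in capitals, and because its members differ in the remaining bases. Sequences and positions are those of RefSeq on GRCm38.p6, where all 4 names matched.
miR-181a-5p: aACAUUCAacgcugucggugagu
miR-181c-5p: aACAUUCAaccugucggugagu
miR-181b-5p: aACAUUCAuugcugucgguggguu
miR-181d-5p: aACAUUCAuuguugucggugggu

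All 4 shared the seed ACAUUCA, and 0 other mature mouse miRNAs in the RefSeq table had it. miR-181c-5p lies 1 edit (a base changed, added or removed) from miR-181a-5p, and miR-181d-5p lies 2 edits from miR-181b-5p. Between these pairs the distance was 4 or 5 edits. The genes are arranged differently from the sequences. miR-181a-5p and miR-181b-5p are each encoded by 2 hairpin genes, placed side by side on chromosome 1 (miR-181a-5p at chr1:137966468-137966490 and miR-181b-5p at chr1:137966650-137966673, plus strand) and again on chromosome 2 (chr2:38852741-38852763 and chr2:38853845-38853868, plus strand). miR-181c-5p (chr8:84178924-84178945, minus strand) and miR-181d-5p (chr8:84178759-84178781, minus strand) come from another pair of genes, 85 bases apart. The array reads the mature miRNA, so signal of miR-181a-5p or miR-181b-5p cannot be assigned to chromosome 1 or 2.

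The P4 arrays detected 325 to 384 miRNAs by Agilent's flag, and the P5 arrays 367 to 419. Each array was scaled to the 75th percentile of its own signals, taken over the 293 miRNAs with signal on all 6 arrays. This scaling signal was 186 to 382 intensity units in P4 and 315 to 526 in P5. With 3 arrays a population, precision is limited by their number. Of the 370 miRNAs tested, those detected on all 3 arrays of at least 1 population, limma called 51 higher and 52 lower in P4 at a Benjamini-Hochberg adjusted p under 0.05. The split was 47 and 77 with scaling over all miRNAs, 52 and 74 with quantile normalization and 23 and 77 with no scaling. In these settings the median over the 370 log2 differences was -0.17, -0.13 and -0.64, against 0.0013 in the values reported, so each difference is to be read against that median. Markers of the labelled cell types were checked, in lists chosen with earlier results of these data known. All 4 miRNAs of contractile and myoepithelial cells and all 3 of basal epithelium were called higher in P4, against 13.8% of all tested miRNAs. The 4 are both arms of miR-143 and of miR-145a, so they are not 4 separate markers. Of the 4 luminal miRNAs 3 were called lower in P4, against 14.1% of all. The other, miR-375-3p, a miRNA of hormone-sensing luminal cells, was detected on no array of either population.

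All 4 family members were detected on all 6 arrays, and miR-181d-5p was the 1 member that passed the test, lower in P4. None was called higher in P4. Across the 370 tested miRNAs 14.1% were called lower, 13.8% higher, and 27.8% in either direction. The unadjusted p was under 0.05, with a lower signal in P4, for the same 1 member and for 18.9% of all tested miRNAs. The difference was below 0 for 3 of the 4 members, against 49.7% of all. The median difference of the 4 members was -0.23 on the log2 scale, against 0.0013 over all tested miRNAs. The plot of signals by array shows each member on its own.

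**Figure D1:**
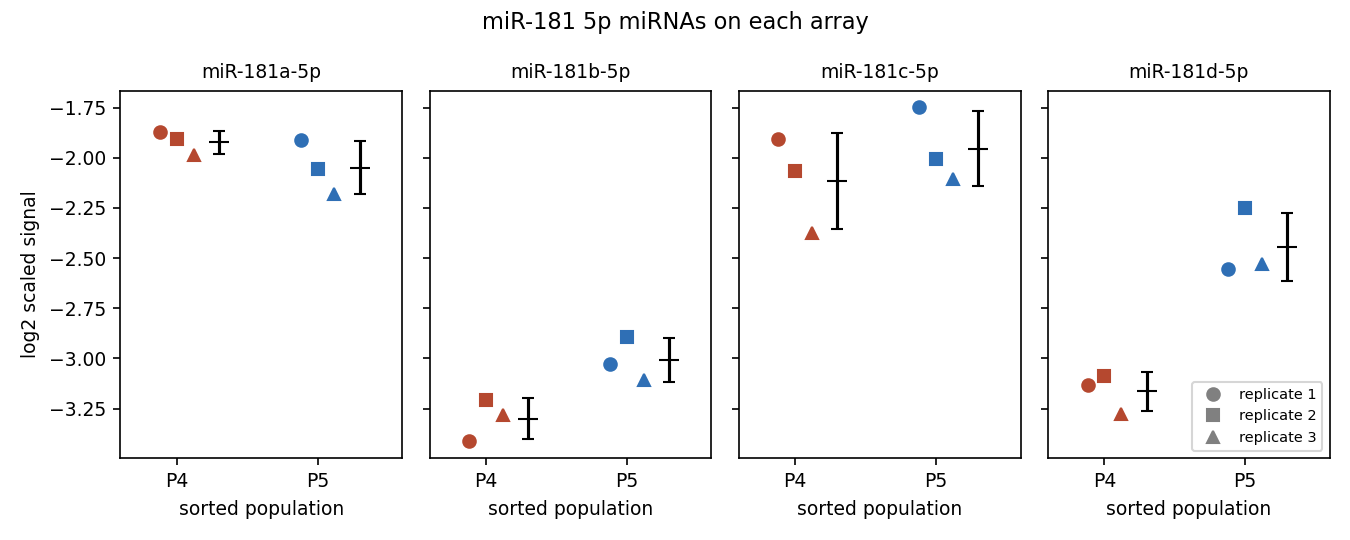
Log2 scaled signal (vertical axis) of each miR-181 5p miRNA on each array, with P4 left of P5; marker shapes give the replicate, and the bar beside each group is its mean and SD (n = 3). P4 and P5 do not overlap for miR-181b-5p and miR-181d-5p and overlap for miR-181a-5p and miR-181c-5p; heights of different miRNAs cannot be compared, since each has its own probes.

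mmu-miR-181d-5p, the product of the chromosome 8 gene Mir181d, had a scaled signal of 0.114, 0.118 and 0.103 on the P4 arrays, against 0.170, 0.210 and 0.173 on the P5 arrays. Every P4 array lay below every P5 array. The mean log2 scaled signal was -3.16 ± 0.10 in P4 and -2.45 ± 0.17 in P5 (SD, n = 3 each). The difference was -0.72 ± 0.16 (SE; 95% interval -1.08 to -0.35), or 1.65-fold higher in P5, and passed limma's test (adjusted p = 0.0113). By signed difference it was the 49th lowest of the 370 miRNAs. Leaving out each array in turn gave -0.77 to -0.62, and limma's adjusted p was then 0.0222 to 0.0374.

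The call of miR-181d-5p was lost with normexp background correction, where the difference was -0.0447 with an offset of 50 and -0.43 with an offset of 0 (adjusted p = 0.888 and 0.114). The median over the 370 miRNAs was then 0.29 and 0.16, and miR-181d-5p lay 0.34 and 0.59 below it on the log2 scale. The call was lost, too, when all 1247 miRNAs were tested (adjusted p = 0.0679). It did not hold with the row of the array on the slide as a block either (-0.61, adjusted p = 0.150), a fit that sets the 3 P4 arrays against P5 replicate 1, the 1 P5 array in their row.

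mmu-miR-181b-5p, the closest in sequence to miR-181d-5p, did not pass the test, at -0.29 on the log2 scale. Its scaled signal was 0.0939, 0.108 and 0.103 on the P4 arrays, against 0.123, 0.135 and 0.116 on the P5 arrays. The groups did not overlap, so that 2 of the 4 members had P4 wholly below P5. Over all tested miRNAs this held for 21.6%, and groups did not overlap in either direction for 42.2%. The mean log2 scaled signal was -3.30 ± 0.10 in P4 and -3.01 ± 0.11 in P5 (SD, n = 3 each), so that its difference had a standard error of 0.14 (95% interval -0.63 to 0.05; limma adjusted p = 0.167). It passed with the authors' processed values (-0.62, adjusted p = 0.0473), where the median over the 370 miRNAs was -0.43 and miR-181b-5p lay at -0.19 from it. With normexp at an offset of 50 it was at 0.21 (adjusted p = 0.448), below that setting's median of 0.29.

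mmu-miR-181a-5p, the member known from T cell receptor signalling, did not pass the test. Its scaled signal was 0.273, 0.266 and 0.252 on the P4 arrays, against 0.266, 0.240 and 0.221 on the P5 arrays. The groups overlapped, since P5 replicate 1 lay among the P4 arrays. The mean log2 scaled signal was -1.92 ± 0.06 in P4 and -2.05 ± 0.13 in P5 (SD, n = 3 each), a difference of 0.13 ± 0.14 (SE; limma adjusted p = 0.544). The 95% interval of -0.21 to 0.47 includes differences in either direction. With scaling over all miRNAs, quantile normalization and no scaling the difference was -0.0446, -0.005 and -0.53 (adjusted p = 0.291 to 0.987). Relative to the median of the 370 miRNAs in each of these settings it was 0.12, 0.13 and 0.11, so the sign moved there with the median. The sign did not follow the median with the row of the array on the slide as a block. In that setting the difference was -0.0115 and the median 0.13.

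mmu-miR-181c-5p, the neighbour of miR-181d-5p on chromosome 8 and the closest in sequence to miR-181a-5p, varied most among the replicates. Its scaled signal was 0.267, 0.239 and 0.193 on the P4 arrays, against 0.298, 0.249 and 0.232 on the P5 arrays. The groups overlapped, with P4 replicate 1 above P5 replicates 2 and 3. The mean log2 scaled signal was -2.12 ± 0.24 in P4 and -1.95 ± 0.18 in P5 (SD, n = 3 each), a difference of -0.16 ± 0.18 (SE; 95% interval -0.59 to 0.27; limma adjusted p = 0.539). Without P4 replicate 3, the lowest array, the difference was -0.0329, and without P5 replicate 1, the highest, it was -0.0591.

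**Figure D2:**
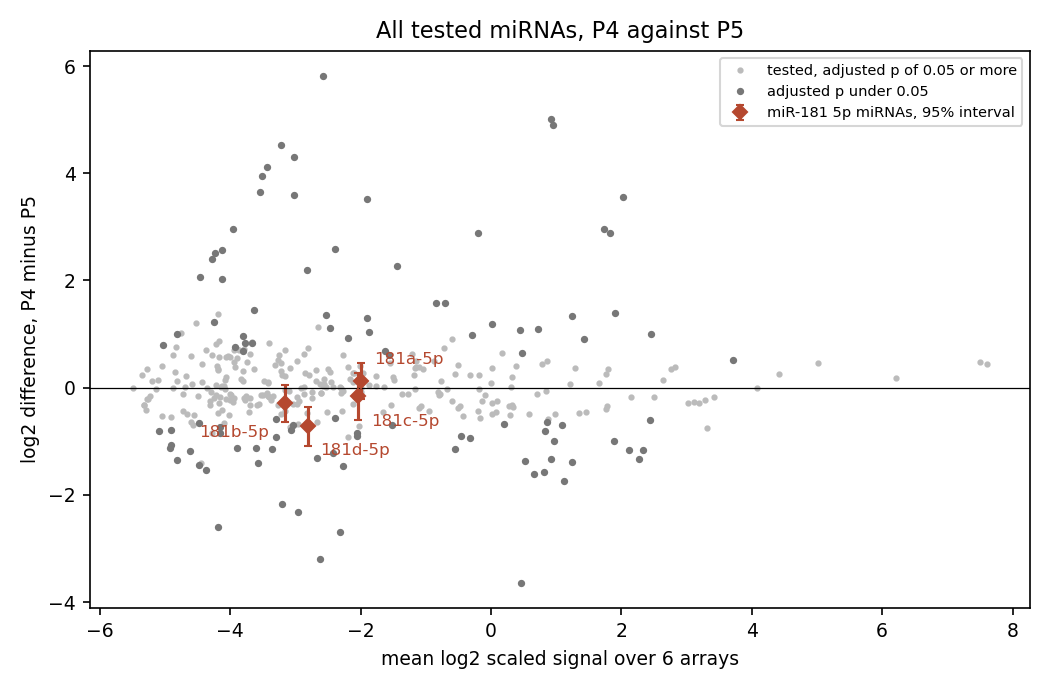
Log2 difference, P4 minus P5 (vertical axis), against the mean log2 scaled signal over the 6 arrays (horizontal axis) for the 370 tested miRNAs; dark points have an adjusted p under 0.05, and diamonds with 95% intervals are the miR-181 5p miRNAs. The interval of miR-181d-5p lies below 0 and those of the other 3 members include 0.

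Each member was read by 2 probes, each with 14 to 20 spots per array after outlier spots were left out. The paired probes gave close differences. They were -0.73 and -0.71 for miR-181d-5p, -0.29 and -0.30 for miR-181b-5p, 0.12 and 0.13 for miR-181a-5p, and -0.12 and -0.21 for miR-181c-5p. All 4 probes of miR-181d-5p and miR-181b-5p had groups that did not overlap, and the other 4 had groups that overlapped. The mean processed signal was low for these 2 members, at 21.2 to 45.0 intensity units in P4 and 54.5 to 96.1 in P5 for miR-181d-5p, and at 17.5 to 41.4 in P4 and 36.6 to 64.6 in P5 for miR-181b-5p. It was 50.7 to 102 in P4 and 69.6 to 140 in P5 for miR-181a-5p, and 49.6 to 91.3 in P4 and 73.2 to 157 in P5 for miR-181c-5p. All these values lay above the floor applied to the scaled signal (0.0223), so no difference was set by it. How far a probe also captures the other members was not measured.

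Since the scaling of an array cancels in a ratio of its own signals, the members were also compared with each other within each array. In miR-181d-5p over miR-181a-5p the log2 ratio was -1.26, -1.18 and -1.29 on the P4 arrays, against -0.64, -0.19 and -0.35 on the P5 arrays. The ratios did not overlap, and their means differed by -0.84 ± 0.14 (SE). The ratio of miR-181d-5p to its gene neighbour miR-181c-5p was -1.22, -1.02 and -0.90 in P4, against -0.81, -0.24 and -0.43 in P5, again with no overlap and with a difference of -0.56 ± 0.19. That of miR-181d-5p to miR-181b-5p differed by -0.43 ± 0.09, with no overlap either. These ratios carry each probe's own brightness, so they do not show which member is more abundant. With normexp at an offset of 50 the difference was -0.29 for miR-181d-5p over miR-181a-5p and -0.12 for miR-181d-5p over miR-181c-5p.

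Of the 6 pairs of members 5 had ratios that did not overlap between P4 and P5, as did 52.4% of the 68265 pairs that the 370 tested miRNAs form. The others were miR-181b-5p over miR-181a-5p (-0.42 ± 0.11) and miR-181c-5p over miR-181a-5p (-0.29 ± 0.11), while miR-181c-5p over miR-181b-5p overlapped (0.13 ± 0.21, SE). The 2-sided exact permutation test gave p = 0.1 for each of the 5, the smallest p that 3 arrays against 3 allow, and 0.12 after adjustment over the 6 pairs. For the last pair the exact p was 0.6. This exact test on 3 arrays against 3 therefore cannot pass a threshold of 0.05 for a single ratio.

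**Figure D3:**
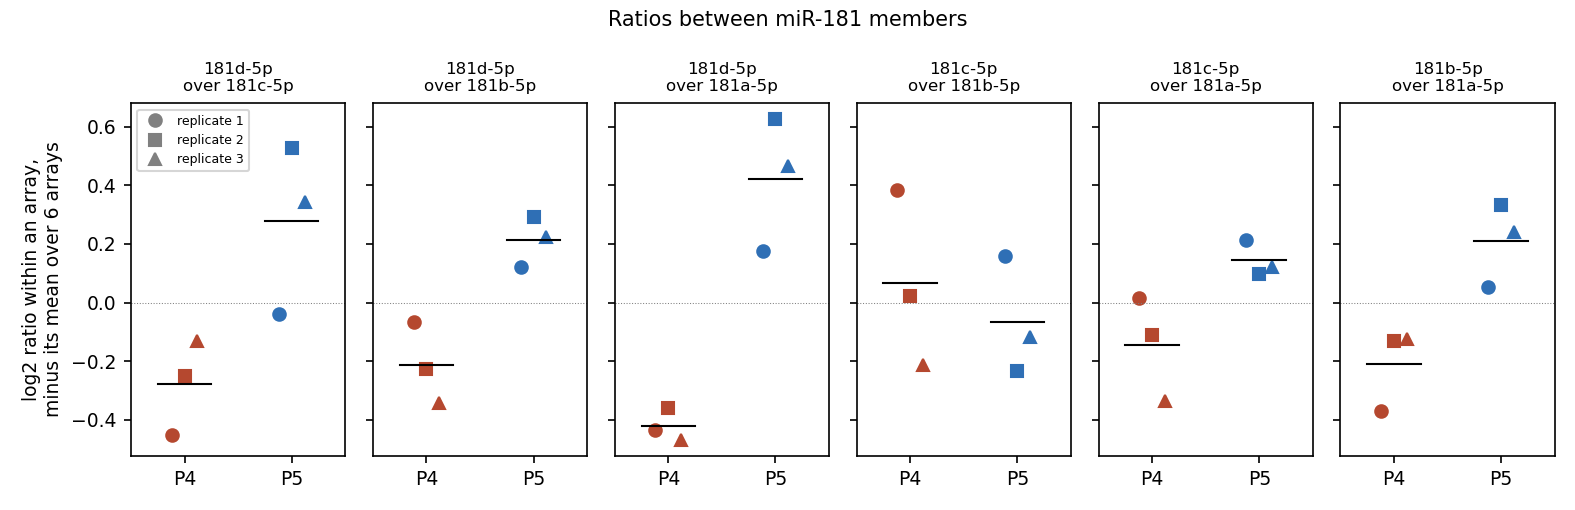
Log2 ratio of each pair of miR-181 5p miRNAs within an array, minus the mean of that ratio over the 6 arrays (vertical axis), with P4 left of P5; shapes give the replicate and bars the group means. The ratio of miR-181d-5p to each other member was lower on every P4 array than on every P5 array.

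The members also differed in how they varied inside a population. In P5 miR-181a-5p and miR-181c-5p, the pair 1 edit apart, were highest on replicate 1 (0.14 and 0.21 above the P5 mean on the log2 scale), whereas miR-181b-5p and miR-181d-5p, the pair 2 edits apart, were highest on replicate 2 (0.12 and 0.20 above it). In P4 replicate 3 was lowest for miR-181a-5p, miR-181c-5p and miR-181d-5p (-0.06, -0.26 and -0.11 from the P4 mean) and replicate 1 for miR-181b-5p (-0.11). Each such order rests on 1 array, and a link to sequence was not tested. Profiles were also compared over both populations together, by the root mean square difference between 2 members over the 6 arrays. Each member was centred on its own mean over all 6 arrays. The measure therefore includes the P4 to P5 difference and is no separate evidence on it. It was smallest for miR-181c-5p and miR-181a-5p (0.18) and largest for miR-181d-5p and miR-181a-5p (0.44). It was 0.22 for miR-181c-5p and miR-181b-5p, which lie 5 edits apart, and 0.23 for miR-181d-5p and miR-181b-5p, which lie 2 edits apart. For the pairs whose genes lie side by side it was 0.34 (miR-181d-5p and miR-181c-5p) and 0.24 (miR-181b-5p and miR-181a-5p).

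By the same measure, the closest of the other 366 tested miRNAs to each member were named, as a description over 6 arrays that share slide and scaling. Nearest to miR-181a-5p were miR-107-3p (0.07), miR-103-3p (0.07) and let-7i-5p (0.08), against a median of 0.37 over the 366, and their own differences were 0.13, 0.09 and 0.25 on the log2 scale. Nearest to miR-181b-5p were miR-15b-5p (0.09), miR-423-5p (0.11) and miR-452-5p (0.11), with differences of -0.44, -0.20 and -0.44. For miR-181c-5p they were miR-101c (0.12), miR-872-5p (0.14) and miR-101a-3p (0.14), with differences of -0.29, -0.11 and -0.36. None of these 9 was called. The 3 nearest to miR-181d-5p were miR-3096b-3p (0.10), miR-25-3p (0.11) and miR-3077-5p (0.12). All 3 were called lower in P4, by -0.65, -0.91 and -0.70 (limma adjusted p = 0.0115, 0.00433 and 0.0339), against 14.1% of all tested miRNAs. They were chosen by their profiles over the same 6 arrays, so a lower signal in P4 followed from the choice. Their calls are therefore no separate support for that of miR-181d-5p. The call of miR-3077-5p was lost when any array but P5 replicate 1 was left out, and that of miR-3096b-3p without P4 replicate 1.

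The opposite arms of the 6 hairpins, whose strands are usually degraded, gave no measurable signal. miR-181a-1-3p, miR-181a-2-3p, miR-181b-1-3p, miR-181b-2-3p, miR-181c-3p and miR-181d-3p were detected on 0 of 6 arrays, and all 36 of their values lay below the floor. Their mean processed signal was -3.92 to 8.90 intensity units. Only a bound is known for them in either population, so no fold is given. These 3p strands would have told the genes of chromosomes 1 and 2 apart, since each hairpin has its own. As examples, the 3p strands of both miR-181a genes are shown in lower case.
miR-181a-1-3p: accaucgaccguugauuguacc
miR-181a-2-3p: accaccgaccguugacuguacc

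The genes nearest to Mir181c and Mir181d belong to the cluster of miR-23a, miR-27a and miR-24-2, miRNAs known from muscle and endothelial biology, 29.6 to 29.9 kb from Mir181c on chromosome 8. Of their tested miRNAs, miR-23a-3p, miR-24-3p and miR-27a-3p were called higher in P4 and miR-24-2-5p was not, against 13.8% of all tested miRNAs called higher. miR-23a-3p had a log2 scaled signal of 3.16, 2.68 and 3.01 in P4, against 2.06, 1.63 and 2.17 in P5, and was called higher in P4 (0.99 ± 0.21, SE; limma adjusted p = 0.00984). miR-24-3p, which a gene on another chromosome also encodes, was higher by 1.34 ± 0.19 (adjusted p = 0.00197), with 1.77 to 2.20 in P4 and 0.31 to 0.73 in P5. miR-27a-3p was called higher as well (0.65 ± 0.19, adjusted p = 0.0383), and its call was lost without any 1 array other than P4 replicate 3. With no scaling miR-23a-3p, miR-24-3p and miR-27a-3p were at 0.34, 0.69 and -0.0038 (adjusted p = 0.441, 0.137 and 0.998), which is 0.98, 1.33 and 0.64 above that setting's median of -0.64. In the authors' processed values miR-23a-3p was at 0.67 (adjusted p = 0.0581), and blocking by slide row gave 0.89 (adjusted p = 0.141), so both settings ended its call. Testing all 1247 miRNAs also ended the calls of miR-23a-3p (adjusted p = 0.144) and miR-24-3p (adjusted p = 0.0523).

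miR-24-2-5p was at 0.70 ± 0.22 (SE; limma adjusted p = 0.0559), and miR-709, encoded 92.5 kb away on the other side, at -0.46 ± 0.18 (adjusted p = 0.103). Without P4 replicate 3 both passed, miR-24-2-5p at 0.89 and miR-709 at -0.59 (adjusted p = 0.0190 and 0.0382). The remaining 4 miRNAs of this neighbourhood, miR-23a-5p, miR-27a-5p, miR-3074-2-3p and miR-3074-5p, were not tested, as miR-23a-5p was detected on 2 arrays and the others on none. The table lists 0 other miRNA genes within 100 kb of the pairs on chromosomes 1 and 2.

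**Figure D4:**
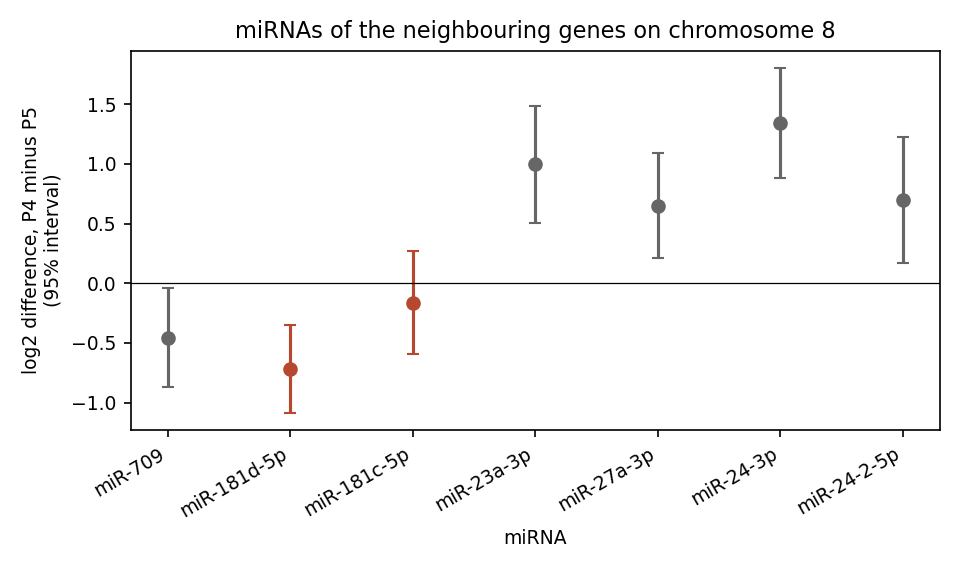
Log2 difference, P4 minus P5, with its 95% interval (vertical axis) for the tested miRNAs encoded near Mir181c and Mir181d, in gene order along chromosome 8 (horizontal axis, not to scale). miR-181d-5p lies below 0 and the 3p miRNAs of the miR-23a cluster lie above it, except that miR-27a-3p was at -0.0038 with no scaling, where the median of all tested miRNAs was -0.64.

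Markers of other cells moved with the populations, and their part in these values was not tested. Both populations were sorted as Lin-, a gate meant to remove cells of other lineages such as blood and endothelial cells. The counts of called miRNAs below stand against 13.8% of all tested miRNAs called higher in P4. Of the 6 leukocyte miRNAs 2 were called higher in P4, miR-150-5p (a log2 difference of 2.20) and miR-146a-5p (2.03), and the summed scaled signal of the list was 1.11 to 3.61 in P4 and 0.73 to 1.01 in P5. All 6 were detected in both populations. The sum was highest on P4 replicate 3. On that array miR-181a-5p, miR-181c-5p and miR-181d-5p were at -0.06, -0.26 and -0.11 from their P4 means on the log2 scale, and miR-181b-5p at 0.02. A link between the 2 was not tested. Both endothelial miRNAs, the arms of miR-126, were higher in P4 (sum of 8.09 to 20.6 in P4 and 0.77 to 2.32 in P5), and likewise highest on P4 replicate 3. Of the 6 miRNAs of fibroblasts and mesenchyme 3 were called higher in P4 (sum of 1.62 to 3.53 in P4 and 0.42 to 0.54 in P5), with miR-214-3p and miR-127-3p detected on no array. Of the 4 skeletal muscle miRNAs 3 were called higher in P4 (sum of 0.47 to 0.79 in P4 and 0.02 to 0.03 in P5), and 0 of the 4 were detected in P5. Of the 3 erythroid miRNAs 0 could be tested (sum of 0.04 to 0.05 in P4 and 0.02 to 0.03 in P5), and both arms of miR-144 were detected on no array. In a sorted population fewer cells with a miRNA and less of it per cell cannot be told apart.

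Among 9 miRNAs whose level TGF-beta is known to change, 2 were called higher and 5 lower in P4, against 13.8% and 14.1% of all tested miRNAs. These calls are not independent, since all 5 lower ones are of the miR-200 family. Of these 9, miR-143-3p, miR-145a-5p, miR-141-3p and miR-200c-3p also stand in the contractile or luminal marker lists, and miR-155-5p in the leukocyte list. Those higher were miR-143-3p (a log2 difference of 5.01) and miR-145a-5p (4.90), which TGF-beta raises in smooth muscle, and those lower were the miR-200 family, which it represses in epithelial cells, led by miR-141-3p (-1.74) and miR-200c-3p (-1.61). miR-21a-5p (-0.75 ± 0.30, SE; limma adjusted p = 0.111) and miR-155-5p (0.47 ± 0.27, adjusted p = 0.213), which TGF-beta is known to raise in mammary epithelial cells as it does miR-181, did not pass. The median difference of the 4 miR-181 members was -0.23 and that of all tested miRNAs 0.0013. That of the 9 was -0.80, but the list mixes miRNAs that TGF-beta raises with miRNAs that it represses. Its median therefore gives no direction of a response and is not comparable with that of miR-181.

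**Figure D5:**
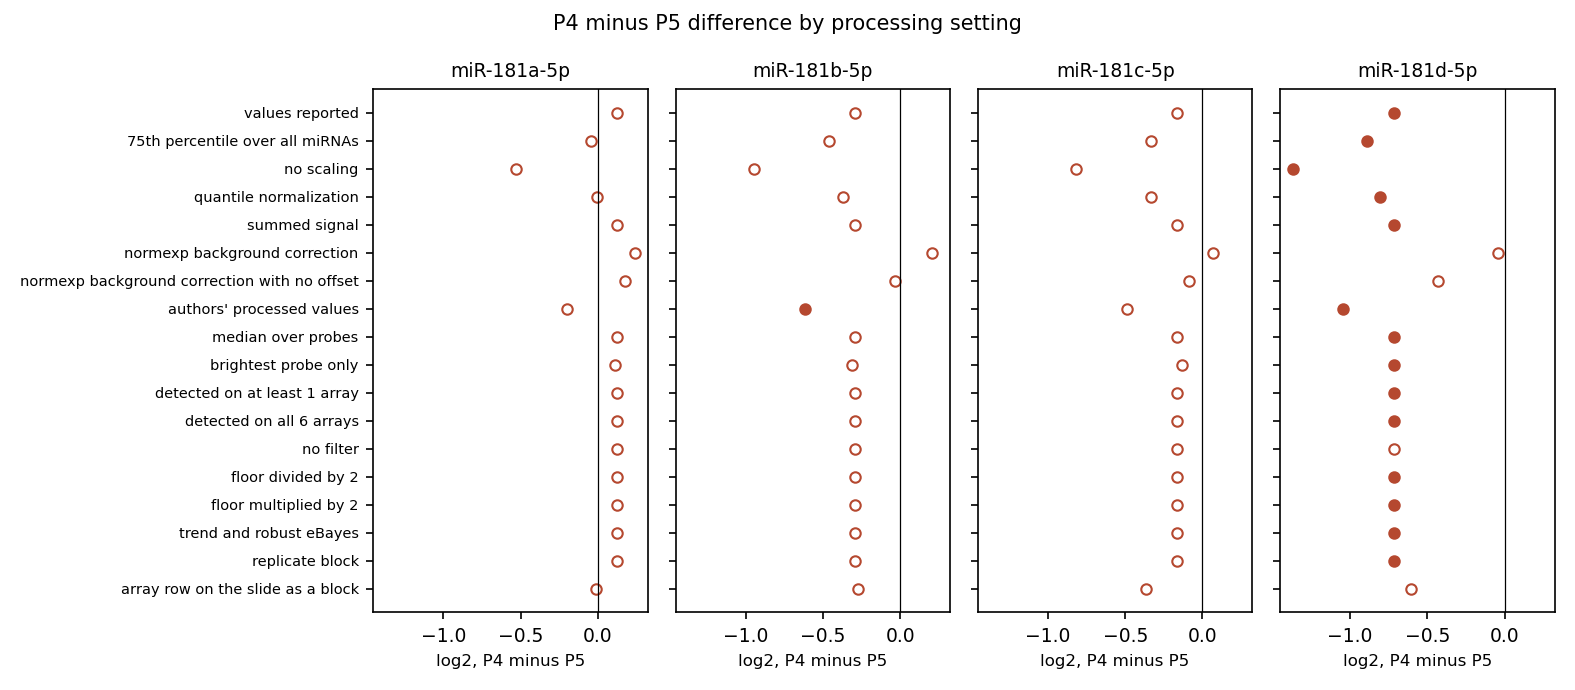
Log2 difference, P4 minus P5 (horizontal axis), of each miR-181 5p miRNA under each processing setting (rows); filled points have an adjusted p under 0.05. miR-181d-5p was below 0 in every row and within the threshold in all but the 2 normexp rows, no filter and the array row as a block.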

How the data were processed

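The authors deposited 6 scanner files of spot intensity on a linear scale, background-subtracted but not scaled to each other. Per the file headers the software was Feature Extraction of Agilent, 11.0.1.1 (11.0 in the submitters' processing notes). The authors also deposited a matrix of processed log2 values for 1247 of these miRNAs. They match the log2 summed signal to within 7.86e-06 once an offset for the array and another for the miRNA are removed. The source of the offsets of the miRNAs, and so the centring, is unknown; the matrix's P4 columns had medians of 0.42, -0.36 and -0.06, and its P5 columns of -0.56, -0.47 and 0.06. The headers place all arrays on 1 slide in 1 scan, with the P4 arrays and P5 replicate 1 in the first row; they name build mm9, so gene positions come only from RefSeq.

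Control spots and outlier spots were left out, 0 spots were saturated, and the remaining spots gave a mean for each probe and then for each miRNA. The scaling divided these by the 75th percentile of the miRNAs that all 6 arrays detected. Scaled values under a floor were raised to it before log2 was taken; the floor (-5.49 on the log2 scale) is the 95th percentile of undetected signal, as a median of the arrays. The test of P4 minus P5 was limma's (version 3.58.1, R 4.3.3, lmFit, eBayes, 2-sided, no block), adjusted over the 370 miRNAs at a threshold of 0.05. The limma fit, but no other step, was also run on simulated log2 values drawn with the means and spreads of these data. Ratios of members were compared by exact permutation over arrays. normexp used the median spot signal and median background. Alternatives were other scalings, background corrections, averages, filters, floors and blocks, the authors' values, and leaving out arrays. Named besides the members were their 3p arms, miRNAs of genes within 100 kb, the 3 nearest profiles of each member, and at most 2 called miRNAs of a list. The members, lists, alternatives and tests were chosen with earlier results of these data known.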

Additional observations from a re-analysis of the deposited data

How the results depend on the processing

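The median of the 370 differences was -0.17 with scaling over all miRNAs, -0.64 without scaling, -0.13 with quantile normalization and -0.43 in the authors' values. It was 0.29 with normexp (0.16 with an offset of 0) and 0.13 with slide row as a block, neither moving all miRNAs together. Over the alternatives, miR-181d-5p stayed lower in P4, at -1.37 (no scaling) to -0.0447 (normexp). Its call was lost with normexp at an offset of 50 (-0.0447) or 0 (-0.43; chosen after the first was seen), with no filter (-0.72, adjusted p = 0.0679), where more miRNAs were tested, and with slide row as a block (-0.61), where fewer arrays enter. The cause was not tested for normexp. miR-181b-5p passed with the authors' processed values (-0.62) and changed sign with normexp (0.21), as did miR-181c-5p (0.071), both still below that setting's median. miR-181a-5p changed sign with scaling over all miRNAs (-0.0446), no scaling (-0.53), quantile normalization (-0.005), the authors' processed values (-0.20) and slide row as a block (-0.0115), never with a call; it stayed above the median in the first 4 and lay below it in the last. Without each array in turn miR-181a-5p was at 0.06 to 0.19, miR-181b-5p at -0.34 to -0.24, miR-181c-5p at -0.27 to -0.03 and miR-181d-5p at -0.77 to -0.62.

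The difference between miR-181c-5p and miR-181b-5p turned with normexp (-0.14, and -0.0575 with an offset of 0), and was -0.0292 to 0.27 without each array, the lowest without P4 replicate 1; the other 5 pairs kept their sign in all alternatives run, not their size. With normexp at an offset of 50, miR-181b-5p minus miR-181a-5p was -0.0362 and miR-181d-5p minus miR-181c-5p -0.12 (exact p = 0.6 and 0.5), and the other 3 were -0.29 to -0.17. The count of called miRNAs, 103 in all, was 47 with no filter (25 higher, 22 lower) and 52 with slide row as a block (29 higher, 23 lower). With no scaling 23 were higher; with the authors' processed values 31 were higher and 81 lower; with normexp 25 were lower, or 34 with an offset of 0. Leaving out arrays gave 85 to 121 calls, 43 to 72 higher and 40 to 56 lower. With the replicate block miR-181d-5p was at -0.72 (adjusted p = 0.0210) with 54 higher and 57 lower, and no member changed its call, while miR-24-2-5p passed (adjusted p = 0.0406). P4 and P5 share replicate numbers, but the deviations of same-numbered arrays correlated at -0.07, 0.37 and 0.09, and not every array correlated best with its own number.

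Of the nearest profiles, let-7i-5p changed sign with no scaling (-0.41) and the authors' processed values (-0.0765). miR-103-3p did so with scaling over all miRNAs (-0.0774), no scaling (-0.56) and the authors' values (-0.23), and miR-107-3p with these (-0.0401, -0.52 and -0.20) and quantile normalization (-0.0685), while each lay above its setting's median. With normexp miR-423-5p (0.365; 0.167 with an offset of 0), miR-872-5p (0.28; 0.0667) and miR-3077-5p (0.0129) did so, of which miR-423-5p alone lay above the median, and with no scaling miR-27a-3p (-0.0038), above it. miR-423-5p was at -2.17 with the summed signal and -2.50 in the authors' values, not called, and the cause was not tested. miR-452-5p was at -0.02 with normexp and was called lower with scaling over all miRNAs (-0.61), quantile normalization (-0.61) and the authors' values (-0.77). The 3p arms were not tested.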
